A study of Mus musculus with 4 samples.

Results

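The cytosolic ribosomal proteins were described across the cells of mouse sarcomas taken from mice given vehicle or digoxin. Members were the genes whose symbols in the deposited tables match the standard names of small-subunit (Rps) and large-subunit (Rpl, Rplp) proteins, without kinases, pseudogenes or named paralogs. The pattern found 76 genes, 30 of the small and 46 of the large subunit, among 17992 genes in the table of malignant cells and 16349 genes in the table of non-malignant cells. The same 76 genes were present in both tables, and all 76 passed the filter on low counts in each of the 12 populations tested. The pattern used gene names only, not measured values, but the members were chosen with earlier results of these data known.

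All tumors, in both groups, carried conditional Trp53 alleles (Trp53flox/flox) together with another engineered allele that is not reported here, on the 129/SvJae strain, and grew as allografts in the hind limb. The vehicle group received PBS by intraperitoneal injection, and the digoxin group received digoxin at 2 mg/kg in PBS, from a stock made with DMSO, with 24 h between doses. Whether the vehicle held DMSO is not given in the sources used here. The protocol also mentions plating for culture, and which tumors that step applies to is not given. Tumors were collected after dose number 4. There were 2 mice per group, and each mouse counted as 1 replicate. Digoxin is a cardiac glycoside that inhibits the sodium-potassium pump. How the alleles were recombined, in which cells, and whether the 4 allografts share 1 origin is not given in the sources used here. Single cells were profiled with a droplet kit for 3′ ends, in which a molecular barcode (UMI) marks every captured RNA, so each molecule counts once whatever its length.

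Ribosomal proteins assemble with ribosomal RNA in the nucleolus into the small subunit, which decodes the messenger RNA, and the large subunit, which forms peptide bonds. Their messenger RNAs are among the most abundant of a cell, and in mammals most begin with a short run of pyrimidines, the 5′ terminal oligopyrimidine (TOP) tract, through which mTORC1 and Larp1 control their translation. Free Rpl5 and Rpl11 can bind Mdm2 and stabilize p53, which is known as the ribosomal stress response. Cytosolic ribosomes are made of these proteins, whereas mitochondrial ribosomes use a separate set.

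RefSeq start-site sequences on build GRCm38.p6 were available for 56 of the 76 members, with 66 start sites in all. A few are shown because a pyrimidine start is the sequence feature that the members are known for and that was not used to choose them. The first 5 were picked for a match, and Rpl9 stands for the windows without one. Each run below covers the 15 bases before an annotated start and the 15 bases from it, so base 16 is the start, and capitals mark the letters CTTTC. Coordinates and strand follow the sequences in the next sentence.
Rplp2: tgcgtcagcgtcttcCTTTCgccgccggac
Rpl38: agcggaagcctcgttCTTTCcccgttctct
Rps27: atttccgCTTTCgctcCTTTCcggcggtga
Rpl35: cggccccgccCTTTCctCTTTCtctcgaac
Rps26: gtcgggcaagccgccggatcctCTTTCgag
Rpl9: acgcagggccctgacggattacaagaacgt
The windows lie at chr7:141447636-141447665 (plus strand) for Rplp2, chr11:114668565-114668594 (plus) for Rpl38, chr3:90213634-90213663 (minus) for Rps27, chr2:39005117-39005146 (minus) for Rpl35, chr10:128626492-128626521 (minus) for Rps26 and chr5:65391417-65391446 (minus) for Rpl9. Most windows of 30 bases held no match: 16 of 66 had one, it began at the annotated start in 2 (Rplp2 and Rpl38), and the base at the annotated start was C in 20 of 66. Within the 50 bases on each side of the start, CTTTC on the coding strand was found in 35 of the 66 member windows (53%), against 12.8% of all 32851 windows of the same length in the table and 11.1% of the windows of other protein-coding genes. On the opposite strand it was found in 7.58% of member windows and 12.1% of all windows. A match is a description of these letters, not a measured start of transcription, and several windows belong to 1 gene.

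Before the members are compared, the libraries need a short description. Malignant cells numbered 3976 to 6269 per mouse, with a median of 46799 to 57658 UMIs per cell, and non-malignant cells numbered 3014 to 3344 per mouse with a median of 15837 to 16671 UMIs. No doublet caller was run and no cell was removed, and 113 of 31498 cell barcodes occurred in more than 1 mouse. Trp53, the conditionally deleted gene, was measured at 6.56 to 7.71 UMIs per 1000000 (CPM) in the malignant cells of the 4 mice, against 63.8 to 75.5 CPM in their other cells. One library stood apart in non-malignant cells. Xist there was at 722 and 6.09 CPM in the 2 vehicle mice and at 817 and 788 CPM in the 2 digoxin mice. Ddx3y, a Y-linked gene, was at 86.0 CPM in these cells of vehicle replicate 2 and at 1.72 to 2.14 CPM in the other mice. By these 2 markers vehicle replicate 2 was a male host and the others were female, so host sex differed within the vehicle group. In malignant cells Ddx3y was at 43.1 to 49.3 CPM and Xist at 0.46 to 16.9 CPM in the 4 mice. The host cells of vehicle replicate 2 also differed in mixture, with 152 Osteoclasts against 28 to 47 in the other mice and 69 NK cells against 141 to 150. Counts of members that lean one way under digoxin within a population are therefore also given without each vehicle mouse in turn. Cell types are those of the deposited annotation. The type named Epithelial had 859 to 971 CPM of Cdh5, an endothelial gene, and at most 0.36 CPM of Epcam, an epithelial gene. The type named Microglia had 2178 to 2592 CPM of Siglech, a gene of plasmacytoid dendritic cells and microglia. Of 2 other microglial genes it had 0 to 2.75 CPM of Tmem119 and 14.5 to 31.9 CPM of P2ry12, which over all non-malignant cells was at 23.1 to 47.7 CPM. In this type 4 plasmacytoid dendritic genes, Siglech among them, summed to 8279 to 9612 CPM, against 336 to 405 CPM in macrophages. A fixed list of microglial genes summed to 21.4 to 47.1 CPM there, against 236 to 472 CPM in macrophages. Both names are kept below as labels only.

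Close to 1 in 4 UMIs of a malignant cell fell on the members. The share of a cell's UMIs, averaged over cells, was 23.3% and 24.2% in the malignant cells of vehicle replicates 1 and 2 and 24.3% and 24.0% in those of digoxin replicates 1 and 2. Over all non-malignant cells it was 16.2% and 16.9% with vehicle and 15.9% and 15.9% with digoxin. The malignant share was above the non-malignant share by 7.73 ± 0.592 percentage points (SD, n = 4 mice), and in all 4 mice. Both parts of the ratio were larger in malignant cells. They carried a mean of 13477 to 16027 member UMIs and 42477 to 52436 other UMIs per cell in the 4 mice, against 2857 to 2945 and 14446 to 15396 in non-malignant cells of the same libraries.

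The host types formed 3 levels. Natural killer (NK) cells had the highest share, 25.4% and 26.8% with vehicle and 25.7% and 25.8% with digoxin, and were above malignant cells in 4 of 4 mice by 1.94 ± 0.497 points (SD, n = 4). T cells followed malignant cells, with 23.2% and 21.7% with vehicle and 22.9% and 23.3% with digoxin, 1.19 ± 1.07 points lower and lower in 4 of 4 mice. With 1 mouse left out that step ranged from 0.732 points (without vehicle replicate 2) to 1.55 points (without vehicle replicate 1), so its size was not settled. The next type, Osteoclasts, was 4.22 ± 0.964 points below T cells (SD, n = 4), and again in 4 of 4 mice. From there the order was not settled: Osteoclasts, Microglia, Fibroblast and Epithelial types had means of 18.6%, 17.5%, 17.2% and 16.8%, and neighbours kept their order in 3, 2 and 3 of 4 mice. Macrophages, the most numerous host cells, had 15% and 16.2% with vehicle and 14.9% and 15% with digoxin, below the Epithelial type in 4 of 4 mice. Among macrophages, the sub-clusters named Highly proliferative M2 and M1 were above the M2 sub-cluster in 4 of 4 mice, by 0.893 ± 0.338 and 0.775 ± 0.727 points (SD, n = 4). The step from M1 was 0.439 points without vehicle replicate 2, and with mitochondrial UMIs left out of the total it was 0.440 points and present in 2 of 4 mice. These are descriptions without a test, since the deposited types were made from these cells.

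**Figure D1:**
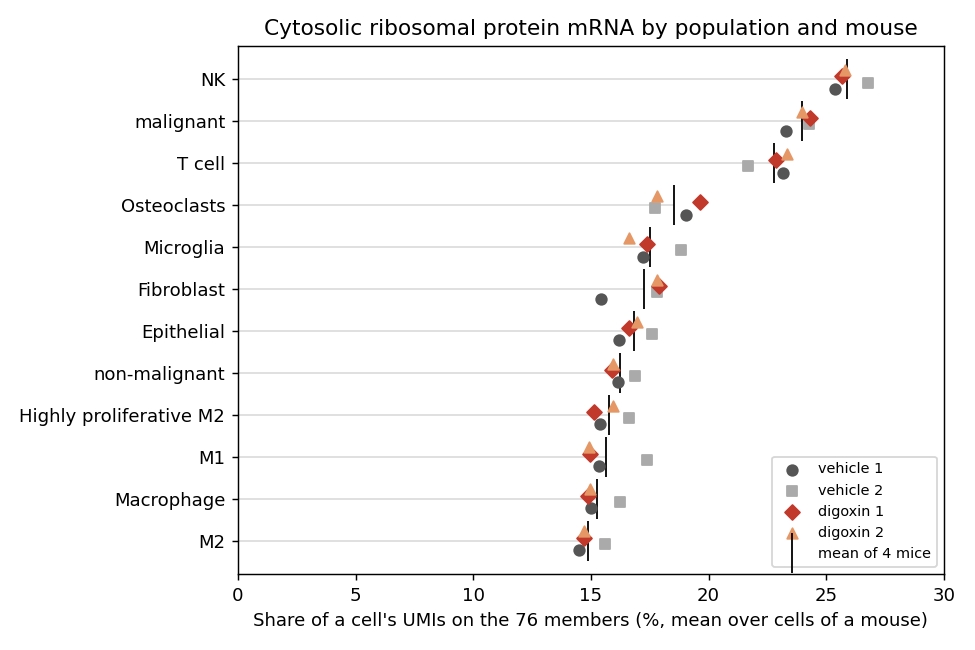
Share of a cell's UMIs on the 76 members (horizontal axis, %, mean over the cells of a mouse) in 12 populations. Each symbol is 1 mouse and the vertical mark is the mean of 4 mice; NK, malignant and T cells lie above 21% in every mouse, and all other populations lie below 20%.

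Depth is given beside this order, and its part in the shares was not tested. Malignant cells carried the most UMIs, with medians of 46799 to 57658, whereas T cells carried a median of 7244 to 8232 and NK cells of 10992 to 12449. Within malignant cells the share was 22% to 23.0% in the 25% deepest cells of each mouse and 22.4% to 23.0% in the 25% shallowest, with the groups between them at 23.5% to 26.3%. The same groups of macrophages lay between 13.7% and 16.5%, so the 2 ranges did not meet. Osteoclasts had the highest mean mitochondrial share of UMIs, 9.43% to 12.2%, and with mitochondrial UMIs left out of the total the step from T cells to Osteoclasts was 3.20 points. Types with fewer than 20 cells in any mouse were not ordered. Among them, Neutrophil cells had shares of 10.3% to 13.5% from 5 to 34 cells per mouse. Cells named Unknown, 30 and in vehicle replicate 2 only, had a share of 21.9% and a median of 54784 UMIs. They are part of the non-malignant cells above.

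Single members differed widely in level in malignant cells. CPM values are set side by side between genes because each captured molecule gives 1 UMI, and whether capture differed between genes was not tested. Many ribosomal protein genes also have near-identical processed pseudogenes, and reads that match several copies can be split or lost in counting. Among the highest were Rplp1 (6783 ± 264 CPM, SD, n = 4 mice), Rpl23 (6414 ± 184), Rpsa (6361 ± 126) and Rpl32 (6144 ± 275). Rplp1 belongs to the acidic stalk that recruits elongation factors, and Rpsa is also known as the laminin receptor precursor. The 5 lowest were Rpl29 (111 ± 5.75), Rpl13a (319.8 ± 10.1), Rpl27 (470.1 ± 15.5), Rpl31 (599 ± 26.9) and Rpl36a (1051 ± 14.9). Highest and lowest member therefore differed far more than the 4 mice did for either of them.

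Digoxin against vehicle was tested for each member in malignant cells, in all non-malignant cells and in 10 host types or macrophage sub-clusters. No member passed the test in any of the 12 populations with limma (Benjamini-Hochberg adjustment over all genes tested, threshold 0.05), edgeR or DESeq2. For limma the background was as low. It called 0.467% of all genes tested in the Epithelial type, 0.0765% in NK cells, 0.0128% in Osteoclasts and 0.0% in malignant cells and the other 8 populations. The shares of all genes called by edgeR and DESeq2 are not given here, so their counts have no background beside them. At an unadjusted p under 0.05, limma had 0 of 76 members in malignant cells, where 585 of 17138 genes reached it, and 0 of 76 in non-malignant cells, where 581 of 14879 did. NK, Osteoclasts and T cells had 1 member each at that level (1.32% of members, where 6.28%, 6.38% and 4.28% of all genes reached it), and the other 9 populations had 0.

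In malignant cells the 76 differences (digoxin minus vehicle, log2 of CPM + 1) ran from -0.06 to 0.20, with a median of 0.02 beside -0.01 for all genes tested. The standard error of a member had a median of 0.09. Both digoxin mice were above both vehicle mice for 21 members, against 12.8% of all genes, and below them for 0 members, against 16.5% of all genes. For 48 of the 76 members vehicle replicate 1 held the lowest of the 4 values. Against vehicle replicate 2 alone, both digoxin mice were above for 27 members and below for 34, where 36.6% and 39.8% of all genes were. Against vehicle replicate 1 alone they were above for 56 and below for 2, where 28.2% and 34.5% of all genes were. The share of UMIs showed the same layout, as the 2 digoxin values lay on either side of vehicle replicate 2 and above vehicle replicate 1. The difference in share was 0.368 points (exact permutation test, two-sided, p = 0.667), and 2 mice against 2 cannot give a p below 0.33. Without vehicle replicate 1 it was -0.108 points, and without vehicle replicate 2 it was 0.843 points.

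The highest differences in malignant cells included those of Rps29 and Rpl38. Rps29, a zinc-finger protein of the small-subunit head, was at 2679 and 2670.3 CPM with vehicle and at 2960 and 3174 CPM with digoxin. Both digoxin values were above both vehicle values, and the difference was 0.20 (SE 0.09, limma adjusted p = 1.00). Rpl38 was at 2291 and 2157 CPM with vehicle and 2391 and 2499 CPM with digoxin, a difference of 0.14 (SE 0.09). The 3 lowest, Rpl9, Rps24 and Rpl29, each differed by -0.06, with overlapping groups.

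In non-malignant cells the members leaned the other way, also without a call. The differences ran from -0.18 to 0.10, with a median of -0.05 beside -0.02 for all genes tested. Both digoxin mice were below both vehicle mice for 41 members, against 20.6% of all genes, and above them for 2 members, against 12.4%. Vehicle replicate 2, the mouse with low Xist, held the highest value for 51 of the 76 members. Its mean mitochondrial share in non-malignant cells was also the highest, 6.88% against 4.77% to 5.58% in the other mice, and the part of these features, or of its cell mixture, in the difference was not tested. Against vehicle replicate 1 alone, both digoxin mice were below for 46 members and above for 10, where 46.7% and 21.9% of all genes were. Against vehicle replicate 2 alone they were below for 59 and above for 12, where 36.3% and 39.8% were. The difference in share was -0.603 points with all mice, -0.239 points without vehicle replicate 2, against -0.967 points without vehicle replicate 1. Rps9, an early-assembling small-subunit protein, had the lowest difference, with 2815 and 3230 CPM with vehicle and 2792 and 2545 CPM with digoxin (-0.18, SE 0.12, limma adjusted p = 0.975). Rpl29 and Rpl10a followed with -0.14 and -0.13, and Rps29 was again the highest, with 0.10 (SE 0.11).

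Within host types the same mouse stood out. In macrophages vehicle replicate 2 held the highest value for 61 of 76 members, and 31 members had both digoxin mice below both vehicle mice, against 17.3% of all genes. Without that mouse 34 members were below, against 41.6% of all genes, and 19 were above, against 24.6%. Without vehicle replicate 1 the counts were 63 below and 8 above, against 33% and 41.6%. In the M1 sub-cluster it was highest for 71 of 76. M1 had the lowest median difference of the 12 populations, -0.13 beside -0.02 for all genes tested, and 52 members had both digoxin mice below both vehicle mice, against 24.0% of all genes. Its share of UMIs was 15.3% and 17.4% with vehicle and 15% and 14.9% with digoxin, so vehicle replicate 1 lay close to both digoxin mice. Without vehicle replicate 2 the difference in the M1 share was -0.377 points, against -1.40 with it, and 53 members had both digoxin mice below the remaining vehicle mouse, against 44.5% of all genes. Without vehicle replicate 1 the count was 72, against 38.7% of all genes. In the Fibroblast type it was vehicle replicate 1 that stood apart, with the lowest value for 67 of 76 members. There the median difference was 0.09 beside -0.04 for all genes, and 26 members had both digoxin mice above both vehicle mice, against 10.1% of all genes. Without that mouse 27 members were above and 31 below, against 36.4% and 37.7% of all genes, and the difference in share was 0.029 points, against 1.22 with it. Without vehicle replicate 2 there were 74 above and 0 below, against 22.2% and 43% of all genes, and the difference in share was 2.40 points. The Fibroblast type held 31 to 78 cells per mouse, and the median standard error of a member was 0.19. In the Microglia type 23 members were below and 3 above in this sense (16.2% and 16.7% of all genes), and without vehicle replicate 2 they were 27 and 19 (32.2% and 32.1%), and without vehicle replicate 1 they were 61 and 7 (33.4% and 35.9%). Highly proliferative M2 cells had 15 below and 2 above (12.6% and 17.4%), 17 and 16 without vehicle replicate 2 (32.4% and 31%), and 54 and 8 without vehicle replicate 1 (28.4% and 43.9%).

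In the other host populations the counts also moved with the vehicle mouse left out. Vehicle replicate 2 held the lowest value for 56 members in T cells and 44 in Osteoclasts. In the T cell type, NK cell markers summed to 1371 and 786 CPM with vehicle and 1319 and 1132 CPM with digoxin. Macrophage markers there summed to 897 and 2930 CPM, then 1669 and 1923 CPM. The part of these markers' cells in the T cell values was not tested. T cells had 8 members below and 19 above (19.0% and 14.3% of all genes), and without vehicle replicate 2 they had 33 and 19 (35.6% and 29.8%), and without vehicle replicate 1 they had 9 and 56 (38.4% and 32.7%). Osteoclasts had 0 and 13 (15.8% and 21.6%), then 20 and 13 without vehicle replicate 2 (34.2% and 36.2%), and 2 and 46 without vehicle replicate 1 (27.8% and 40%). In both the larger count changed side without vehicle replicate 2, as it did in NK cells and M2 cells. NK cells had 13 below and 12 above (16.9% and 19.1%), then 16 and 38 without vehicle replicate 2 (34% and 33.3%), and 51 and 14 without vehicle replicate 1 (33.7% and 40.9%). M2 cells had 14 and 6 (11.7% and 15%), then 22 and 39 without vehicle replicate 2 (40.2% and 27.5%), and 51 and 14 without vehicle replicate 1 (25.1% and 46%). The Epithelial type had 6 and 14 (16.3% and 17.8%), then 6 and 46 without vehicle replicate 2 (33.7% and 34.7%), and 47 and 14 without vehicle replicate 1 (34.6% and 36.7%), which turned its larger count. Its cells differed between the groups in another respect, since 4 mast cell markers (Cpa3 and Mcpt4 among them) summed to 59.4 and 151 CPM with vehicle and 2391 and 2395 CPM with digoxin, whose part in its member values was not tested. No direction was shared by all types.

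**Figure D2:**
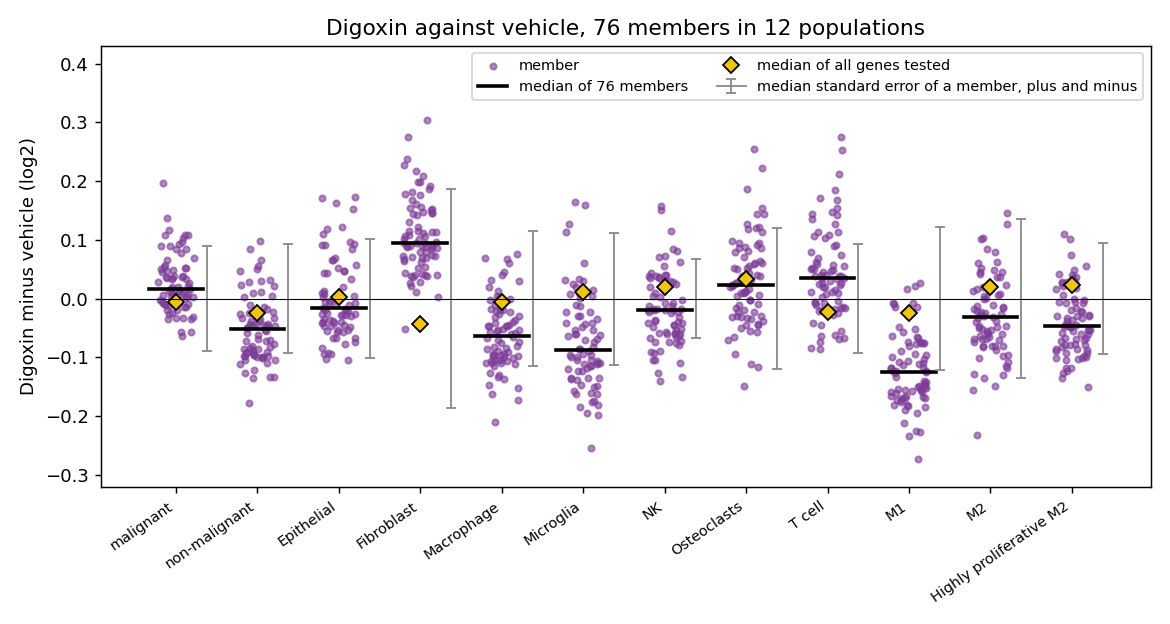
Digoxin minus vehicle (vertical axis, log2) for the 76 members in 12 populations, each point 1 member. Black bars are member medians, yellow diamonds the medians of all genes tested, and grey bars the median standard error of a member; the medians lie between -0.13 (M1) and 0.09 (Fibroblast), and the standard errors are of similar size or larger.

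Rps29 had a positive difference in 12 of 12 populations, and in 7 of them both digoxin mice were above both vehicle mice, as for Rpl31 and Rplp2. The 12 populations come from the same 4 mice and overlap, so they are not independent. The largest of these differences were in the Fibroblast type (2551 and 2581 CPM with vehicle, 2974 and 3373 CPM with digoxin, 0.30, SE 0.18) and in T cells (4511 and 3976 CPM, then 4981 and 5273 CPM, 0.28, SE 0.09). Its smallest limma adjusted p over the 12 populations was 0.754, in NK cells, where it was at 4693 and 4659 CPM with vehicle and 5061 and 5381 CPM with digoxin. Rps9 was the counterpart, with a negative difference in 11 of 12 populations and both digoxin mice below both vehicle mice in 7. In T cells 5 members passed the limma test when vehicle replicate 1 was left out, where 2.17% of 9121 genes did. That fit holds 1 vehicle mouse, assumed to vary like the digoxin mice. The 5 members, Rps27, Rps29, Rplp1 and Rps21 among them, had log2 differences of 0.24 to 0.42. With all 4 mice 0 members did.

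Whether digoxin acted differently on a member in malignant and non-malignant cells was tested in 1 model of both compartments, blocked by mouse. No member passed (limma, 0 of 76, with 0.0% of 15798 genes called), and 0 members reached an unadjusted p under 0.05, where 648 genes did. All 76 estimates (malignant minus non-malignant effect of digoxin) were above 0, from 0.03 to 0.15, with a median of 0.08 beside 0.02 for all genes. The median standard error was 0.08. How many of all genes were above 0 is not given here, nor are the signs without each vehicle mouse. Vehicle replicate 1 was lowest for 48 members in malignant cells, and vehicle replicate 2 was highest for 51 in non-malignant cells. Because the members share the same 8 libraries and the same totals, the common sign is not 76 separate observations.

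Malignant and non-malignant cells of the same tumor differed far more than the treatments did. Of the 76 members, 64 were higher and 4 were lower in malignant cells by limma with the mouse as a block (Benjamini-Hochberg, threshold 0.05), and 8 were not called. Without vehicle replicate 2 the numbers were 65 and 4. Calls were common in this comparison, with 83.7% of all 15798 genes called, 42.5% higher and 41.3% lower, so the share of members called is near the background and their direction is what differs from it. The median member difference was 0.58 (log2), beside 0.01 for all genes tested. Of the 3014 to 3344 non-malignant cells per mouse, 2418 to 2748 were macrophages, the type with the lowest share of those ordered. How the submitters separated malignant from non-malignant cells is not given in the sources used here, and if expression entered that step these p-values describe groups that expression helped to define. If the 4 allografts share 1 origin, the p-values measure spread between hosts of that origin, not between separate tumors. When counts were scaled to UMIs outside mitochondrial genes and the members, the median of all genes moved to 0.12 and that of the members to 0.74.

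The highest differences belonged to large-subunit proteins, among them Rpl34. Rpl34 was at 4657, 4852, 4838 and 4847 CPM in the malignant cells of vehicle replicates 1 and 2 and digoxin replicates 1 and 2, and at 1939, 2096, 1908 and 2035 CPM in their non-malignant cells. Each malignant value was more than 2 times its non-malignant partner, and the difference was 1.27 (SE 0.05, limma adjusted p = 3.67e-07). Rpl23a, a protein near the exit of the peptide tunnel, differed by 1.17, and Rplp0, the base of the acidic stalk, by 1.16. Among small-subunit proteins Rps28 had the highest difference, 0.95, followed by Rpsa, at 6248 to 6541 CPM in malignant and 3251 to 3503 CPM in non-malignant cells (0.91, SE 0.05). Of Rplp0, Rplp1 and Rplp2, which together form the stalk, the first 2 were higher (1.16 and 0.57), and Rplp2 was not called (-0.10, limma adjusted p = 0.087, and 0.06 with the other scaling).

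The 4 members lower in malignant cells included Rps29, Rpl37a and Rps6. Rps29 was at 2679, 2670.3, 2960 and 3174 CPM in malignant cells and at 4121, 4567, 4505 and 4784 CPM in non-malignant cells, with no overlap (-0.65, SE 0.05, limma adjusted p = 1.95e-05). Rpl37a was at 1942 to 2064 CPM in malignant and 2652 to 2799 CPM in non-malignant cells (-0.44, SE 0.05, and -0.28 with scaling to other genes). Rps6, the protein phosphorylated by the S6 kinases downstream of mTORC1, was at 1335 to 1399 CPM in malignant and 1480.3 to 1597 CPM in non-malignant cells (-0.17, SE 0.04, limma adjusted p = 0.00735). With scaling to other genes Rps6 was at -0.02 and no longer called. Rpl5 and Rpl11, which can bind Mdm2, were both higher, by 0.51 (SE 0.04) and 0.15 (SE 0.05, and 0.31 with scaling to other genes). The call for Rpl11 was lost without vehicle replicate 1, digoxin replicate 1 or digoxin replicate 2. With the Fibroblast type alone as the reference, Rpl5 was at 0.59 and Rpl11 at -0.001 (SE 0.06).

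Other members of interest were mostly higher. Rps27 differed by 0.72, Rpl13a by 0.54, Rpl41, the smallest ribosomal protein, by 0.47 and Rpl22 by 0.34. Rps3, which also has a role in DNA repair, was not called (0.07, and 0.23 and called with scaling to other genes). The 4 X-linked members, Rpl39, Rpl10, Rps4x and Rpl36a, were higher by 0.78, 0.72, 0.66 and 0.20, the last being 0.36 with scaling to other genes. With the Fibroblast type alone as the reference, these 4 ran from -0.12 (Rpl36a) to 0.80, with a median of 0.54. In all mice but vehicle replicate 2, malignant cells were far lower in Xist and far higher in Ddx3y than host cells. The part of this difference in the X-linked values was not tested.

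The difference varied with chromosome position as well as with subunit. Annotation on GRCm38 placed 14 members on chromosome 7, more than on any other, 9 of the small and 5 of the large subunit. They included Rpl13a, Rpl18, Rpl27a, Rpl28, Rplp2, Rps3, Rps9, Rps13, Rps15a, Rps16 and Rps19, spread from Rps9 (chr7:3703993-3706897) to Rplp2 (chr7:141447370-141451585). Their median difference was 0.09, with 6 higher, 1 lower and 7 not called. The other 62 members had a median of 0.65, with 58 higher, 3 lower and 1 not called. Scaled to other genes, the chromosome 7 members had a median of 0.24, with 10 higher, 1 lower and 3 not called, and the other 62 a median of 0.80, with 59 higher, 2 lower and 1 not called. This comparison was chosen after the values were seen and is given without a test.

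In each mouse the gap between chromosome 7 members and the others (median against median, malignant minus non-malignant) was nearly the same: -0.55 and -0.56 with vehicle and -0.58 and -0.55 with digoxin. It also held within each host type taken as the reference. Over the 4 mice it was -0.56 to -0.54 against macrophages, -0.55 to -0.49 against the Fibroblast type, -0.58 to -0.49 against NK cells and -0.66 to -0.57 against T cells. The medians themselves depended on the reference. Against NK cells they were -0.60 to -0.57 for chromosome 7 members and -0.09 to -0.004 for the others. Against T cells they were -0.52 to -0.34 and 0.14 to 0.23. Members on 2 other chromosomes were also low, namely 3 on chromosome 1 (median 0.13) and 5 on chromosome 4 (median 0.15). Rps29 did not follow this layout, since it lies on chromosome 12 (chr12:69157722-69159186), where Rps7, the other member there, was 0.66 higher.

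Other genes were also low on chromosomes 1, 4 and 7. Among 5921 non-member genes with a mean of at least 20 CPM, the median difference was -0.69 on chromosome 1, -0.49 on chromosome 4 and -0.64 on chromosome 7, against 0.72 on chromosome 3, 0.60 on chromosome 15 and 0.34 on chromosome 18. The remaining chromosomes lay between -0.12 and 0.09. Members on chromosome 3 (2 members), chromosome 15 (4) and chromosome 18 (2) had medians of 0.99, 0.85 and 0.98. Members on chromosome 8 (2) and chromosome 17 (6) were as high, at 0.92 and 0.80, where other genes had medians of 0.09 and -0.12. Over the 19 chromosomes that hold a member, the member median and the median of other genes had a Pearson r of 0.79 and a Spearman rho of 0.78, and over the 11 with at least 3 members the r was 0.90. Each chromosome gives 1 point, all points come from the same 8 libraries, and no p is given. If chromosome-wide expression entered the submitters' separation of malignant cells, which is not given in the sources used here, the members took part in it, and the chromosome differences are then partly fixed by that step, for single cells as well.

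**Figure D3:**
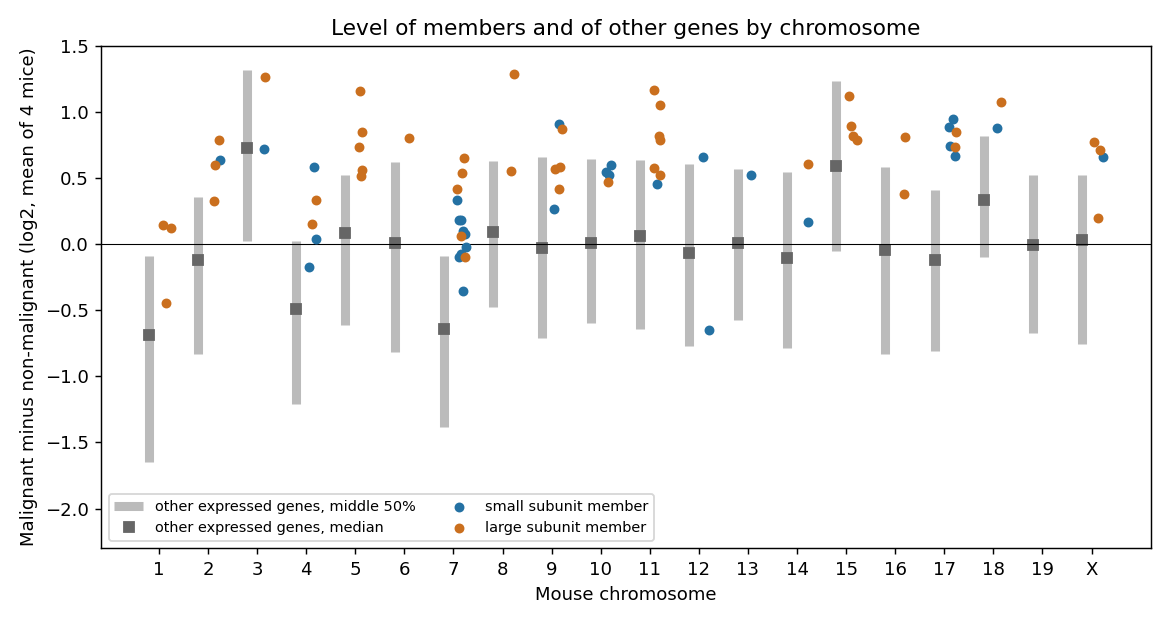
Malignant minus non-malignant level (vertical axis, log2, mean of 4 mice) by mouse chromosome (horizontal axis). Blue and orange points are small- and large-subunit members, grey squares and bars the median and middle 50% of other expressed genes; members on chromosomes 1, 4 and 7 sit lower than most others, as do the grey squares there (-0.69, -0.49 and -0.64).

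The same layout was present when the Fibroblast type replaced all non-malignant cells (Pearson r over 19 chromosomes 0.85), and 50 members were then higher and 3 lower by limma, against 25.1% and 20.6% of all 14902 genes. Between host types the r was lower in the pairs taken, each of 1 type against macrophages. For Fibroblast minus Macrophage the r was -0.10, for T cell minus Macrophage 0.21 and for Epithelial minus Macrophage 0.34. The chromosome 7 members and the others had medians of 0.14 and 0.20 in the first of these and 0.63 and 0.58 in the second.

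Single cells showed the same shift. Members on chromosome 7 took 13.3% to 13.6% of member UMIs in the malignant cells of each mouse, and 17.6% to 19.1% in each host type of each mouse. Per malignant cell, the middle 80% of cells lay between 12.3% and 14.7% over the 4 mice, with medians of 13.2% to 13.5%. In host types the lowest value of that range in any type and mouse was 16.1%, and medians were 17.8% to 19.1%. The ranges did not meet, although host cells carried 1598 to 5814 member UMIs (median per cell) against 12173 to 14625 in malignant cells, which widens the host ranges. Digoxin and vehicle mice lay close together in malignant cells, with shares of 13.49% and 13.59% with vehicle and 13.35% and 13.32% with digoxin. Both digoxin values were below both vehicle values there and in NK cells, T cells and Osteoclasts. They overlapped in the Epithelial, Fibroblast, Macrophage and Microglia types. This layout was not tested.

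The balance of the subunits also differed. The ratio of small- to large-subunit UMIs was 0.645 ± 0.0012 (SD, n = 4 mice) in malignant cells, below the 0.805 ± 0.0045 of non-malignant cells. Host types with at least 20 cells in every mouse ranged from 0.752 to 0.828 over types and mice. Among the others, cells named Unknown were at 0.704 in vehicle replicate 2 and Dendritic cells at 0.850 to 0.865. No host value reached the malignant range of 0.644 to 0.647. Without the chromosome 7 members the ratios were 0.547 and 0.646, so most of the gap remained. By subunit, 21 of 30 small-subunit members were higher and 3 lower in malignant cells (median 0.49), against 43 of 46 higher and 1 lower for the large subunit (median 0.63). Off chromosome 7 the medians were 0.60 and 0.74.

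**Figure D4:**
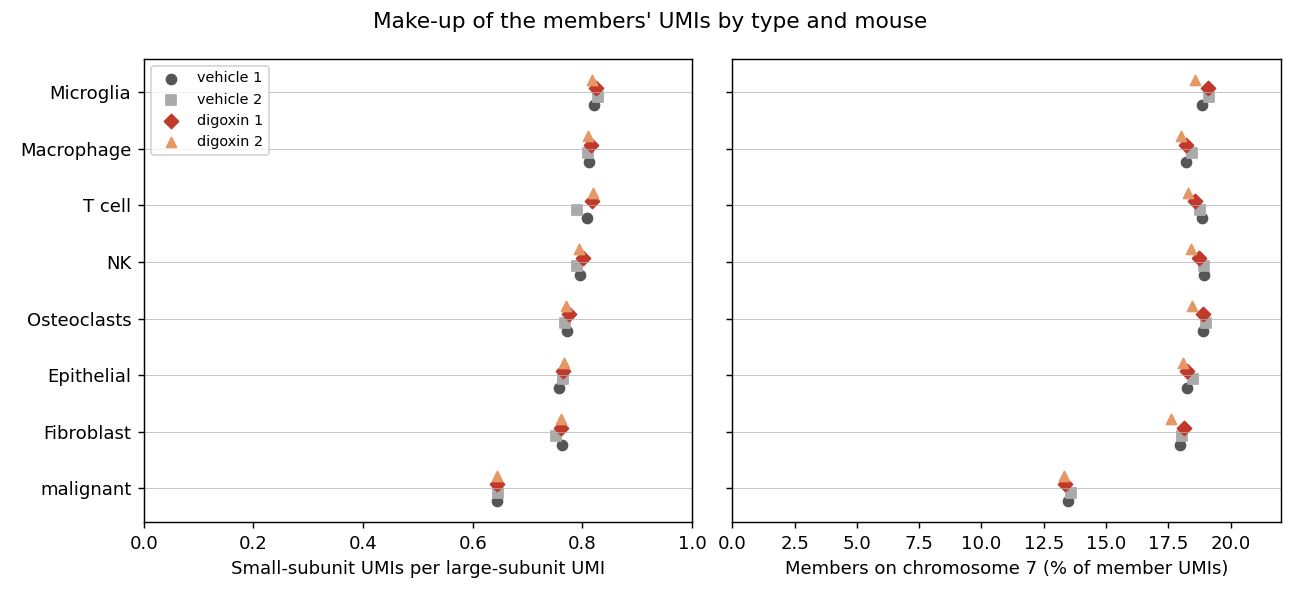
Left, small-subunit UMIs per large-subunit UMI; right, share of member UMIs from the 14 members on chromosome 7 (%), in 8 types. Each symbol is 1 mouse. Malignant cells lie near 0.645 and between 13.3% and 13.6%, apart from every host type shown. Treatment groups overlap or lie close together.

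Between host types most members moved together. Against macrophages, 75 of 76 members were higher in NK cells in 4 of 4 mice, where 38.5% of 5811 genes were, with a median of 0.79 (log2) beside 0.01 for all genes. The exception was Rps29, which was mixed. In T cells 70 of 76 were higher, where 39.3% of genes were, with a median of 0.61. In malignant cells 69 were higher and 3 lower, Rpl37a and Rps29 among them, against 44.5% and 45.0% of 5960 genes. The Fibroblast, Epithelial and Microglia types had medians of 0.19, 0.18 and 0.18, beside -0.14, 0.13 and 0.06 for all genes, so the Epithelial members were close to all genes. In 4 of 4 mice the Epithelial type had 53 members higher and 7 lower (45.0% and 29.7% of genes), the Microglia type 49 and 11 (36.5% and 30%), and the Fibroblast type 44 and 6 (30.4% and 42.1%). Osteoclasts had 64 higher and 1 lower, Rps29 (30.2% and 43.4%). The share of members higher was above the background in each of the 7 comparisons, and all of them share the macrophage values.

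A few members departed from the rest. Measured as the standard deviation, over 8 types, of the log2 level relative to the median member, the most even members included Rpl9 (0.07), Rps4x and Rpl39 (0.09 each) and Rps23 (0.10). The 5 most uneven were Rpl31 (0.57), Rps29 (0.39), Rps2 (0.37), Rps9 (0.34) and Rpl37a (0.33). Rpl31, a protein at the tunnel exit, was at 1537, 1881, 1706 and 1451 CPM in the Microglia-named type of the 4 mice, with vehicle replicates first. It was at 493 to 529 CPM in macrophages and 784 to 849.8 CPM in NK cells, so the Microglia-named type was above both in every mouse. Rps2, a small-subunit protein at the mRNA entry, went the other way there, with 845 to 1082 CPM against 1463 to 1729 CPM in T cells and 2421 to 2672 CPM in malignant cells.

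By CPM, Rps29 was higher in macrophages, T cells and NK cells than in malignant cells and the Fibroblast type. It was at 4143 to 4815 CPM in macrophages, 3976 to 5273 CPM in T cells, 2670.3 to 3174 CPM in malignant cells and 2551 to 3373 CPM in the Fibroblast type. Relative to the median member of each type it was highest in macrophages, by 1.31 on the log2 scale, and level with the median member in malignant cells. Rps27, another small-subunit zinc-finger protein, was at 2664 to 3740.0 CPM in T cells and 3041 to 3574 CPM in the Microglia-named type, against 1439 to 1493 CPM in macrophages. Rps9 was at 4136 to 5161 CPM in the Microglia-named type and 2424 to 3221 CPM in macrophages.

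**Figure D5:**
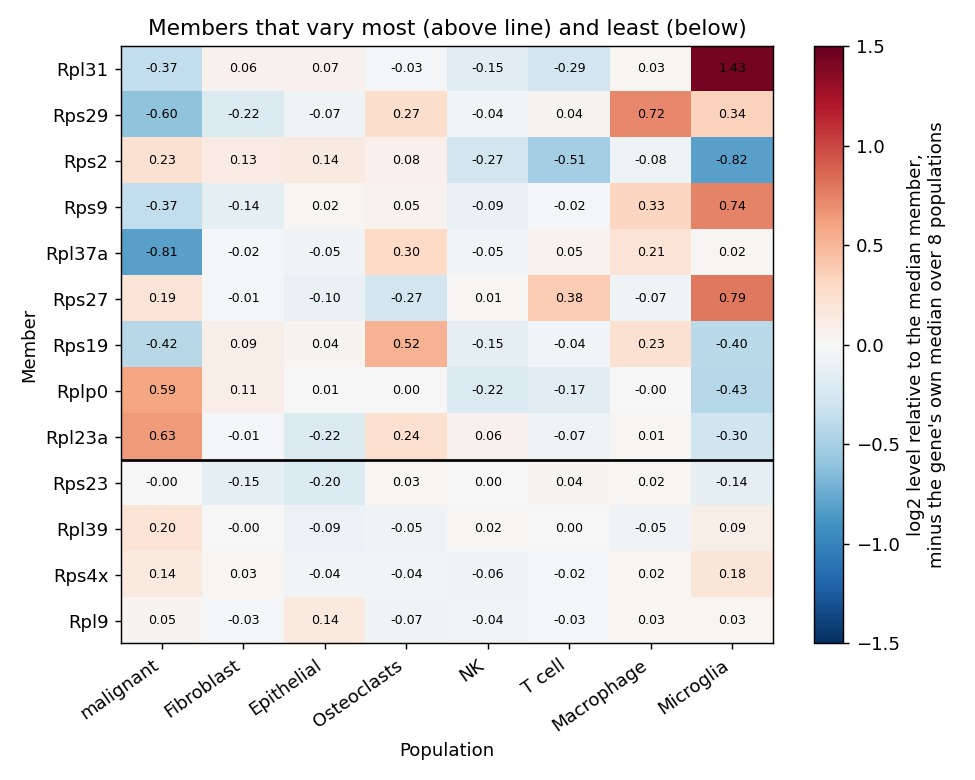
Log2 level relative to the median member of each population, minus the gene's own median over 8 populations, for 9 of the most uneven (above the line) and 4 of the most even members. Colours run from blue (low) to red (high); Rpl31 in the Microglia-named type is the highest cell, and Rps2 in that type and Rpl37a in malignant cells are the lowest.

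The X-linked members did not stand apart in the host with low Xist. Rps4x in non-malignant cells was at 2706 and 2916 CPM with vehicle and 2651 and 2473 CPM with digoxin. For Rps4x, Rpl10, Rpl36a and Rpl39, vehicle replicate 2 differed from the mean of the other 3 mice by 0.03 to 0.18 (log2, median 0.11), within the range of the other 72 members (-0.18 to 0.25, median 0.08).

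The non-member genes most like the members over 32 mouse-by-type values (8 types, 4 mice, 6327 candidates with a mean of at least 20 CPM) were Eef1a1 (Pearson r 0.93), Rps3a1 (0.93) and Rack1 (0.93). Eef1a1 is the elongation factor that delivers aminoacyl-tRNA, Rps3a1 is a small-subunit protein whose symbol falls outside the name pattern, and Rack1 is a scaffold on the small subunit. The next were Gm9493, Supt4a, Eif3m, Eif3h, Npm3, Taf1d and Carnmt1, with r from 0.88 to 0.81. These values share libraries and totals, so the likeness is a description.

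Genes of the wider pathway were taken from fixed lists. No gene of any list passed the test for digoxin in any of the 12 populations (limma). In malignant against non-malignant cells, 15 of 16 elongation and TOP genes were higher and 1 lower, with a median of 0.74 (log2) beside 0.01 for all genes. The most abundant were Tpt1 (0.94), Eef1a1 (0.71), Npm1 (1.70) and Eef1b2 (0.65). Of 30 nucleolar assembly genes, 23 were higher and 5 lower (median 0.71), with Ncl at 0.30, Nhp2 at 0.80, Nop56 at 1.13 and Nolc1 at 1.17. Of 16 genes of RNA polymerase I, which transcribes ribosomal RNA, 12 were higher and 3 lower (median 0.35). Of 78 mitochondrial ribosomal proteins, 44 were higher and 18 lower (median 0.20). All of these stand beside a background of 42.5% of genes higher and 41.3% lower.

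Of 19 regulators in the mTORC1 and Myc list, 10 were higher and 5 lower (median 0.17). Myc, a transcription factor that drives ribosome production, was 3.03 higher (log2), and it lies on chromosome 15. Eif4ebp1, a translation repressor controlled by mTORC1, was 0.72 higher, and Larp1, the TOP-binding repressor, 0.17 higher. Of 12 p53 and Mdm2 genes, 9 were lower and 3 higher (median -0.81), with Cdkn1a, the p53 target that halts the cell cycle, at -3.49 and Mdm2 at -0.73. Of 11 ribosomal genes outside the name pattern, 6 were higher and 4 lower, with Rps3a1 at 0.99, Rpl22l1, a paralog of Rpl22, at 1.19, and Fau, the precursor of a small-subunit protein, at -0.26. Under digoxin the nucleolar genes had a median difference of 0.17 in malignant cells, against 0.11 in the others, beside -0.01 and -0.02 for all genes, with no gene called. Over the host types and macrophage sub-clusters it ranged from -0.01 in NK cells to 0.46 in Osteoclasts, a type with 28 to 152 cells per mouse. These medians are not given without each vehicle mouse, so how far they rest on 1 vehicle mouse is not known.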

How the data were processed

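Single-cell libraries of 4 tumors, 2 from vehicle and 2 from digoxin hosts, were analysed. Per the submitters' processing notes, Cell Ranger 3.0.2 and Seurat 3.0.2 were used with build mm10. The authors deposited values as the natural log of 1 plus UMIs per 10000, and the deposited UMI count per cell returned 100% of values above 0 as whole counts within 0.01. Per cell, UMIs were scaled to CPM and averaged per mouse and population (at least 20 cells in every mouse). limma 3.58.1 (R 4.3.3) was fitted to log2(mean CPM + 1), which understates changes of low genes, with a variance trend, Benjamini-Hochberg adjustment at 0.05 and edgeR's filterByExpr. edgeR 4.0.16 and DESeq2 1.42.0 on summed UMIs were alternatives. On simulated counts for malignant cells (17138 genes), limma recovered 99% of 200 genes changed 2-fold, with 4 false calls. For macrophages it recovered 100%, with 11 false calls. The simulation used summed counts, 1 dispersion for all genes, and changed genes drawn from the more abundant ones. Changes as small as those of the members, at most 0.30 on the log2 scale, were not simulated. Members were named where they passed a digoxin test or else had the 3 highest or lowest differences, were among the 5 highest or lowest in malignant level or in spread over types, or stood on a set list (X-linked members, Mdm2 binders, stalk proteins and others). Members lower in or at the top of the malignant comparison, Rps28 and the chromosome 7 members were named after their values were seen. The members and lists were chosen with earlier results of these data known. Gene positions are from GENCODE on GRCm38, which gave a chromosome for 17989 of 18220 genes. Cells whose names begin with veh3 are listed as vehicle replicate 2 in the deposited cell tables and were used as such. Some members and 1 allele are not reported here.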

Additional observations from a re-analysis of the deposited data

How the results depend on the processing

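The counts of members called under digoxin were 0 in the 12 populations under every alternative run, except in T cells, where they ranged from 0 to 5 with 1 mouse left out. In a fit that left 1 mouse in a group, that mouse was assumed to vary like the others. With the replicate number as a block, 0 members were called in each population. Of all genes, that fit called 85 of 10272 in the Epithelial type, 57 of 8930 in T cells and 23 of 9147 in NK cells. It called 0 to 3 genes in each of the other populations. The replicate numbers share no stated batch, and same-numbered mice deviated with r = -0.36 in malignant cells and r = 0.01 in non-malignant cells. A crossed pairing, added after seeing the data, called 0 members and 0 genes in malignant cells and 0 members and 40 genes in the Microglia type. Members called between compartments numbered 64 to 69 with 1 mouse left out and 68 to 72 under the other settings, and members differing in digoxin effect numbered 0 throughout. The sign of the difference in share (points) turned with 1 mouse left out, with these ranges: malignant cells -0.108 to 0.843, Epithelial -0.794 to 0.610, NK -1.05 to 0.373, Osteoclasts -0.596 to 1.23, T cells -0.068 to 1.42, M2 -0.889 to 0.210 and Highly proliferative M2 -1.09 to 0.150. From summed UMIs it was 0.037 for Epithelial. The step from Microglia to Fibroblast was -0.208 and that from Fibroblast to Epithelial -0.128 from summed UMIs, and the first ranged from -0.239 to 0.753 with 1 mouse left out. From summed UMIs, Epithelial minus Macrophage was 2.27 and NK minus Macrophage 10.4. Without mitochondrial UMIs, T cell minus Osteoclasts was 3.20 and malignant minus Fibroblast 7.56. The chromosome 7 gap was -0.53 with edgeR and -0.56 to -0.55 with 1 mouse left out. Rplp2 between compartments was 0.064 when scaled to other genes. The cause was not tested for any of these. With 2 mice a group, a difference of about 1 standard error, near 0.1 in most populations, cannot be resolved. Larger differences also went uncalled, and whether they are effects of digoxin cannot be told here. In T cells the largest member difference, 0.28 where the median standard error was 0.09, was not called.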
